A study of Homo sapiens with 9 samples.

Results

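The 10 genes described here encode enzymes that make serine, asparagine and proline, together with enzymes that draw on the same carbon and nitrogen: ASNS, PHGDH, PSAT1, PSPH, SHMT2, MTHFD2, PYCR1, ALDH18A1, CTH and PCK2. They were chosen by gene name, as amino acid and one-carbon enzymes linked to the transcription factor ATF4. Earlier results of these data were known when they were chosen. All 10 were found among the 61552 genes listed and among the 16571 genes tested. RNA-seq was carried out on MDA-MB-231 cells, an established human triple-negative breast cancer line labelled as wild type and grown in DMEM with serum. The cells received 0 mM (control), 10 mM or 20 mM 2-deoxy-glucose (2-DG) for 24 h, with 3 libraries per group. 2-DG is a glucose analogue that enters cells like glucose and blocks glycolysis. All values come from this 1 cell line and 1 time point, and nothing in the labels says whether the 3 libraries of a group came from separate cultures, so p-values measure the spread between these libraries, which may be technical.

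Serine is built from 3-phosphoglycerate, an intermediate of glycolysis, in 3 steps catalysed in turn by PHGDH, PSAT1 and PSPH. In mitochondria, SHMT2 splits serine into glycine and a one-carbon unit carried on folate, and MTHFD2 oxidises that unit. ASNS adds an amide group from glutamine to aspartate, while ALDH18A1 and PYCR1 stand at the start and the end of proline synthesis from glutamate. ATF4 is translated more when cells run short of amino acids or when unfolded protein builds up in the endoplasmic reticulum, and it is known to bind and activate many of these genes. The ATF4 binding element is a composite of C/EBP and ATF letters, here searched as TGATGNAA.

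Promoter sequences were examined because the members moved largely together. RefSeq (GRCh38.p14) promoter windows of 300 bases, from 250 before to 50 after a transcription start, were matched for 7 of the 10 genes, all but PSPH, SHMT2 and PYCR1. Both strands were searched. The letters TGATGNAA were present in 3.62% of all 35116 windows and in 1 member, ASNS, between 68 and 61 bases before its start. The stretch of 30 bases around it is shown with the match in capitals, on the minus strand at chr7:97872458-97872487, 5′ to 3′ in the direction of the gene, as are all the sequences that follow.
ASNS: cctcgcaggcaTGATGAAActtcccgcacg
CCAAT, the letters bound by the general promoter factor NF-Y, occurred in 34.6% of all windows and in 5 of the 7 members matched, PHGDH, PSAT1, MTHFD2, CTH and PCK2. Stretches of 30 bases around the match (capitals) are given on the plus strand for PHGDH at chr1:119711850-119711879, for MTHFD2 at chr2:74198418-74198447 and chr2:74198528-74198557, for CTH at chr1:70411138-70411167 and for PCK2 at chr14:24094105-24094134.
PHGDH: tgagtatttccgtCCAATcaaaaggagact
MTHFD2, farther from the start: ggctcttctggctCCAATcaaaagcagggc
MTHFD2, nearer to the start: catgcggcagggaCCAATgggtggcggagg
CTH: cctctgctgtcagCCAATaaggagcgggag
PCK2: tggacccagtcctCCAATgggagagatggg
PSAT1, the member with the largest log2 fold change on the log2(FPKM + 1) scale, and ALDH18A1, the only member without a call, are shown with 200 bases before the start, PSAT1 on the plus strand at chr9:78296925-78297124 and ALDH18A1 on the minus strand at chr10:95656712-95656911. The capitals mark 3 CCAAT matches in PSAT1, and in ALDH18A1 the match on the gene's own strand to TGACGTNA, the core of the cAMP response element, which was present in 3.01% of all windows and in no other member matched. A match on the opposite strand of ALDH18A1 overlaps it and runs on to the first base of the transcript.
PSAT1: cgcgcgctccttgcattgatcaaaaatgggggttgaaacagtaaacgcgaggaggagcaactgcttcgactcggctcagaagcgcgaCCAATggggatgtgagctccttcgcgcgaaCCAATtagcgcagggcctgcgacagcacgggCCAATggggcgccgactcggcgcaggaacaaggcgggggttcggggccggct
ALDH18A1: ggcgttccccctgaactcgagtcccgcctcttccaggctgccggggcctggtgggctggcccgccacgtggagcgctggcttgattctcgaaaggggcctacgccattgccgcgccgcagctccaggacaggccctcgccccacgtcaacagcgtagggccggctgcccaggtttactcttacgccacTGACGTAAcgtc
The endoplasmic reticulum stress element, whose letters begin with CCAAT, was found in 0.0769% of all windows and in 0 of the 7 members. A match is a description of letters in these windows, which do not cover introns or more distant sequence. SHMT1, MTHFD1, GLUL and CBS, partner enzymes described further on, also held CCAAT in their windows.

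Of the 10 genes, 9 were higher than the control at 10 mM 2-DG and the same count was reached at 20 mM, with 0 lower at either dose. A call here is a Benjamini-Hochberg adjusted p under 0.05 over 16571 genes from limma's moderated test on log2(FPKM + 1), where FPKM is the read count scaled by the length of the gene and by the total of the library. Over all genes tested, the background of such calls was 12.1% higher and 17.5% lower at 10 mM, and 15.3% higher and 21.6% lower at 20 mM. The 10 genes were chosen with earlier results of these data known, so the background describes their count and does not test it. Over the 10 genes the log2 fold changes had a median of 0.93 with 10 mM and 1.04 with 20 mM, against −0.01 and −0.02 over all genes tested. Under the stricter rule in the study's methods (unadjusted p under 0.05 and log2 fold change over 1), 5 members passed at each dose, PHGDH, PSAT1, SHMT2, PYCR1 and CTH, where 0.579% of all genes passed in the upward direction at 10 mM and 0.966% at 20 mM. For 9 members all 3 libraries at 10 mM lay above all 3 control libraries, and the count was the same at 20 mM. Over all genes, 17.8% did so at 10 mM and 23.3% at 20 mM. ALDH18A1 was the exception by the adjusted p and by the separation of libraries, and by the stricter rule ASNS, PSPH, MTHFD2 and PCK2 did not pass either. The size was taken here on the log2(FPKM + 1) scale, which understates low genes, and not from the study's count model. As log2 ratios of mean FPKM, ASNS stood at 1.78 at 10 mM and 1.66 at 20 mM, and PCK2 at 0.87 and 1.04. PSPH and MTHFD2 stayed under 1 by that ratio at both doses. In RNA from whole cultures, fewer cells of a kind and less RNA per cell cannot be told apart.

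**Figure D1:**
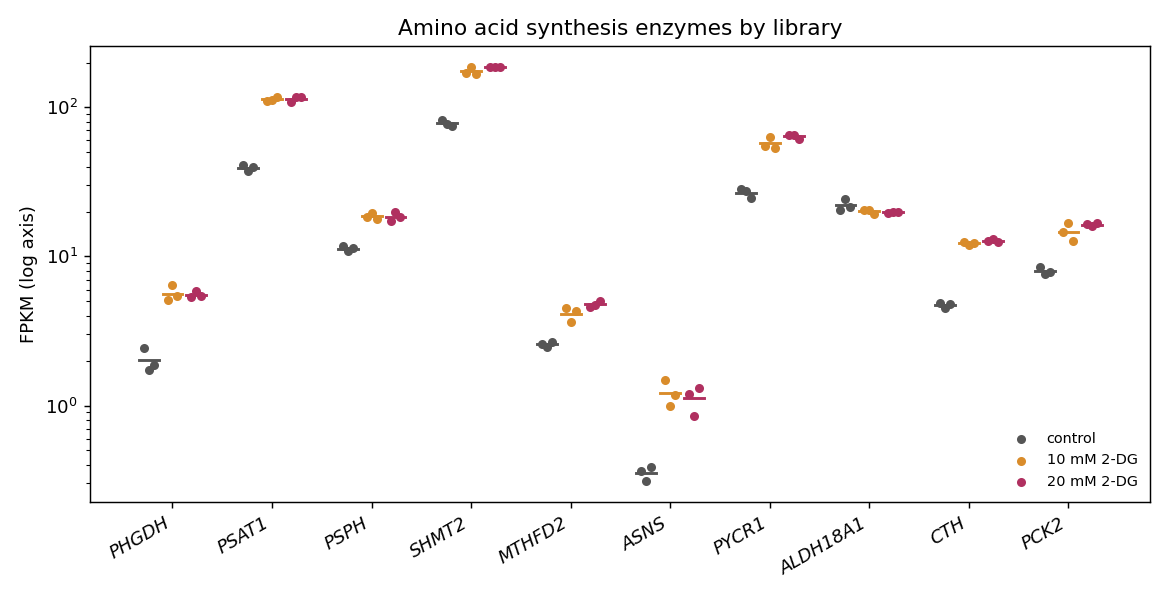
FPKM of the 10 enzymes (log axis) in each of the 9 libraries, with points for the 3 control, 3 10 mM and 3 20 mM 2-DG libraries and bars at the group means. For 9 genes the points of both doses lie above those of the control, and for ALDH18A1 they lie close together.

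Transcripts for each step of the serine pathway were higher at both doses, though the PSPH value is uncertain, as set out below. PHGDH (ENSG00000092621, chr1:119648411-119744226, GRCh38), the first and committed enzyme, was low in the control at 2.42, 1.73 and 1.88 FPKM. It stood at 5.07, 6.41 and 5.40 FPKM at 10 mM 2-DG and at 5.32, 5.88 and 5.44 FPKM at 20 mM. Every treated library was above every control library, and the doses overlapped. MDA-MB-231 is known as a line with little PHGDH, and among the 10 genes it was the second lowest in the control. The mean went from 2.01 ± 0.364 (SD, n = 3) to 5.62 ± 0.698 and 5.55 ± 0.294 FPKM. On the log2(FPKM + 1) scale the increase was 1.14 at 10 mM (95% interval 0.89 to 1.38, adjusted p = 6.71e-05 by limma) and 1.13 at 20 mM (0.88 to 1.37, adjusted p = 4.5e-05).

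PSAT1 (ENSG00000135069, chr9:78297143-78330093), the glutamate-dependent aminotransferase of the next step, read 40.9, 37.5 and 40.0 FPKM in the control. The 10 mM libraries held 111, 112 and 117 FPKM and the 20 mM libraries 109, 117 and 118 FPKM. The treated libraries thus lay in a narrow range far above the control, with no separation of the doses. On the log2(FPKM + 1) scale PSAT1 had the largest log2 fold change of the 10 genes, though not by the ratio of mean FPKM, which was larger for ASNS. It was 1.5 at 10 mM (interval 1.37 to 1.63, adjusted p = 8.03e-07 by limma) and 1.51 at 20 mM (1.38 to 1.64, adjusted p = 2.2e-07), and its mean FPKM was 2.90-fold higher at 20 mM.

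PSPH (ENSG00000146733, chr7:56011051-56051604), the phosphatase that releases serine, rose less. Its control libraries were at 11.7, 10.8 and 11.3 FPKM, those at 10 mM at 18.3, 19.6 and 17.9 FPKM, and those at 20 mM at 17.2, 19.8 and 18.5 FPKM. No treated library reached down to the control. The log2 fold change was 0.67 at 10 mM (interval 0.52 to 0.83, adjusted p = 8.5e-05 by limma) and also 0.67 at 20 mM (0.51 to 0.82, adjusted p = 5.77e-05). PSPHP1, a pseudogene that is a near copy of PSPH, was itself listed at 23.1 to 28.2 FPKM in the control, 14.5 to 22.7 at 10 mM and 17.7 to 20.9 at 20 mM. The copy thus lay below its control range at both doses, while PSPH lay above its own. How reads shared by the gene and its copy were assigned is not given in the sources used here. The PSPH value and the size of its rise are therefore uncertain, and a shift of shared reads was not tested.

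The mitochondrial one-carbon enzymes downstream of serine were both higher. SHMT2 (ENSG00000182199, chr12:57229327-57234935) was the most abundant of the 10 genes, at 82.7, 77.5 and 74.8 FPKM in the control. At 10 mM the libraries stood at 170, 188 and 166 FPKM, and at 20 mM at 187, 186 and 187 FPKM. The treated libraries were all above the control, and those at 20 mM were almost equal to each other (SD 0.581 FPKM). The log2 fold change was 1.15 at 10 mM (interval 1.00 to 1.29, adjusted p = 3.16e-06 by limma) and 1.25 at 20 mM (1.10 to 1.39, adjusted p = 8.4e-07).

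MTHFD2 (ENSG00000065911, chr2:74198562-74217565) was at 2.58, 2.47 and 2.65 FPKM in the control. The libraries at 10 mM were at 4.48, 3.61 and 4.28 FPKM and those at 20 mM at 4.58, 4.74 and 5.01 FPKM. It was the only one of the 10 genes whose 3 libraries at 20 mM all lay above those at 10 mM, a difference that did not pass the test (log2 difference 0.18, interval −0.02 to 0.37, adjusted p = 0.776 by limma). Over all genes tested, 781 of 16571 were separated in this way. Against the control the log2 fold change of MTHFD2 was 0.52 at 10 mM (adjusted p = 0.00182 by limma) and 0.70 at 20 mM (adjusted p = 0.000223). The gene length contained in its FPKM values is 11443 bases, which is 2.35 times the exonic length of 4870 bases in GENCODE 29. Its level relative to other genes therefore depends on the annotation. The length cancels in a ratio of mean FPKM, but the bases over which reads were counted may differ from those of GENCODE 29. On the log2(FPKM + 1) scale the length does not cancel fully. With a pseudocount of 0.1 the log2 fold change at 10 mM was 0.66.

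ASNS, asparagine synthetase (ENSG00000070669, chr7:97852118-97872542), had the lowest level and the largest ratio of mean FPKM. The control libraries held 0.362, 0.312 and 0.387 FPKM. At 10 mM the values were 1.49, 0.990 and 1.17 FPKM, and at 20 mM 1.20, 0.847 and 1.32 FPKM. Each treated library was more than the highest control library, and the spread between treated libraries was wide. Mean FPKM was 3.44-fold higher at 10 mM and 3.17-fold higher at 20 mM. The pseudocount of 1 exceeds the control level, so the log2 fold change on the log2(FPKM + 1) scale was smaller, 0.71 at 10 mM (interval 0.47 to 0.94, adjusted p = 0.000922 by limma) and 0.64 at 20 mM (0.40 to 0.88, adjusted p = 0.00118). Between 56 and 257 reads per library lie behind these values, against 11780 to 35196 reads for SHMT2. A transcript of another gene, AC079781.5, shares 1985 of the 4455 exonic bases of ASNS (44.6%) on the same strand. It was listed at 0.289 to 0.322 FPKM in the control, 0.227 to 0.363 at 10 mM and 0.256 to 0.355 at 20 mM, and reads in the shared part cannot be attributed to either gene with certainty.

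The proline enzymes parted. PYCR1 (ENSG00000183010, chr17:81932384-81942412), the mitochondrial reductase that completes proline, was at 28.2, 27.4 and 24.6 FPKM in the control. Its values were 55.3, 63.6 and 53.3 FPKM at 10 mM and 65.2, 65.0 and 61.8 FPKM at 20 mM. All 6 treated libraries lay well above the control. The log2 fold change was 1.07 at 10 mM (interval 0.90 to 1.24, adjusted p = 1.16e-05 by limma) and 1.23 at 20 mM (1.06 to 1.4, adjusted p = 2.73e-06). Without library 2 at 10 mM, the highest of that group, the 10 mM value was 0.996, just under the size of 1 that the stricter rule asks for.

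ALDH18A1 (ENSG00000059573, chr10:95605929-95656706), which makes the precursor that PYCR1 reduces, was at 20.6, 24.1 and 21.5 FPKM in the control. It stood at 20.6, 20.4 and 19.2 FPKM at 10 mM and at 19.6, 19.9 and 19.8 FPKM at 20 mM. The 10 mM libraries overlapped the control, whereas those at 20 mM were all slightly below it. Neither difference passed the test. The log2 difference was −0.13 at 10 mM (interval −0.27 to 0.02, adjusted p = 0.172 by limma) and −0.15 at 20 mM (unadjusted p = 0.0464, adjusted p = 0.102), so an increase of the size seen in the other 9 genes lies outside the intervals. Its promoter window, shown in part above, held both TGACGTNA matches and neither CCAAT nor TGATGNAA.

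CTH and PCK2 use the products and partners of these pathways. CTH (ENSG00000116761, chr1:70411218-70439851), cystathionine gamma-lyase, releases cysteine from cystathionine, whose carbon comes from serine. It was at 4.85, 4.54 and 4.83 FPKM in the control, at 12.5, 11.9 and 12.3 FPKM at 10 mM and at 12.7, 13.1 and 12.5 FPKM at 20 mM. The spread within each group was small beside the gap to the control. Its log2 fold change was 1.21 at 10 mM (interval 1.08 to 1.34, adjusted p = 1.53e-06 by limma) and 1.26 at 20 mM (1.13 to 1.39, adjusted p = 5.56e-07). CBS, the enzyme that makes cystathionine from serine and homocysteine, was listed at 0 in all 9 libraries. How reads that match several places in the genome were handled is not given in the sources used here. Whether CBS is silent therefore cannot be read from this 0.

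PCK2 (ENSG00000100889, chr14:24094053-24110598), the mitochondrial carboxykinase, turns oxaloacetate into phosphoenolpyruvate, from which the serine precursor can be formed without glucose. It was at 8.49, 7.64 and 7.81 FPKM in the control, at 14.5, 16.7 and 12.6 FPKM at 10 mM and at 16.4, 15.99 and 16.7 FPKM at 20 mM. The treated libraries exceeded the control in every case, with more scatter at 10 mM (SD 2.04 FPKM) than at 20 mM (SD 0.337 FPKM). The log2 fold change was 0.79 at 10 mM (interval 0.59 to 0.99, adjusted p = 0.000184 by limma) and 0.95 at 20 mM (0.75 to 1.15, adjusted p = 3.9e-05). PCK1, the cytosolic form, was too low to be tested.

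**Figure D2:**
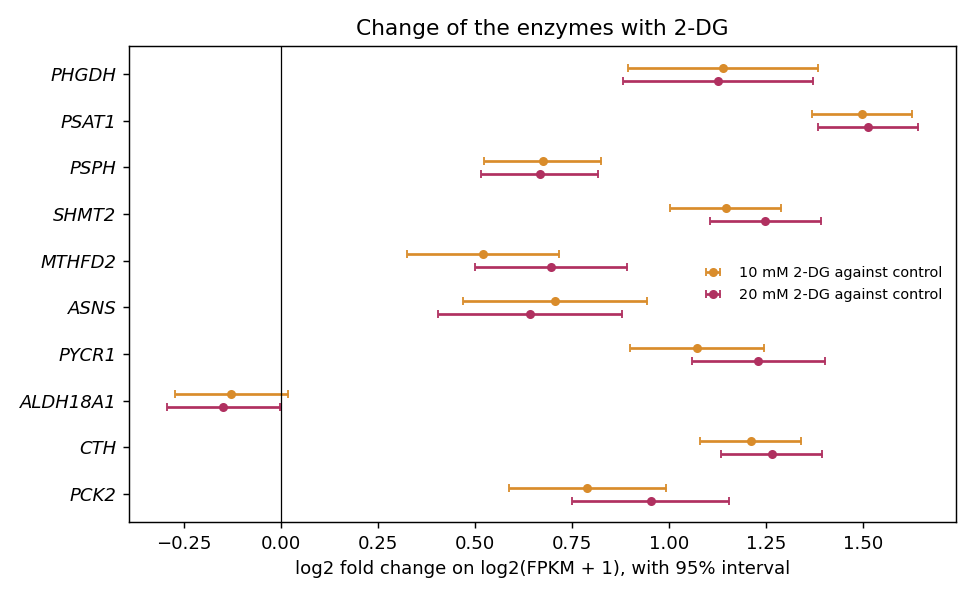
Log2 fold change on the log2(FPKM + 1) scale of each of the 10 enzymes at 10 mM and 20 mM 2-DG against the control, with 95% intervals from limma. The intervals of 9 genes lie above 0 at both doses, PSAT1 being the farthest from 0 at 1.5 and 1.51, and those of ALDH18A1 reach no higher than 0.02.

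The higher dose added no change that passed the test. Between 20 mM and 10 mM, 0 of the 10 genes passed limma's test after Benjamini-Hochberg adjustment and 0 had an unadjusted p under 0.05; over all genes, 0 of 16571 passed (a background of 0%) and 1140 had an unadjusted p under 0.05. The log2 differences ran from −0.06 for ASNS to 0.18 for MTHFD2, with a median of 0.03. The intervals were −0.11 to 0.14 for PSAT1 and −0.08 to 0.18 for CTH, which leave room for only small differences between the doses. For PYCR1 (0.16, interval −0.01 to 0.33) and PCK2 (0.16, interval −0.04 to 0.36) larger ones remain within the interval. The 2 dose comparisons against the control use the same 3 control libraries.

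The order of the levels per length changed little. In the control it ran, by mean FPKM, from SHMT2 (78.3) through PSAT1 (39.5), PYCR1 (26.8), ALDH18A1 (22.1), PSPH (11.3), PCK2 (7.98), CTH (4.74), MTHFD2 (2.57) and PHGDH (2.01) to ASNS (0.354), and no neighbours in this order overlapped between libraries. Under 2-DG the order was the same at both doses except that PHGDH moved above MTHFD2. ALDH18A1 and PSPH then overlapped, at 20.1 and 18.6 FPKM at 10 mM and at 19.8 and 18.5 FPKM at 20 mM. The place of MTHFD2 rests on the gene length contained in its values, as given above.

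Several members have a partner enzyme that carries out the same or an adjoining reaction, often in another compartment. For 6 such pairs the log2 ratio of member to partner, each as FPKM + 1, was compared between the 3 control and the 6 2-DG libraries with a two-sided exact permutation test. For all 6 pairs, each of the 6 2-DG libraries had a higher ratio than any control library. The member of each pair was itself higher in every treated library than in every control library, as given above. This outcome was therefore largely set beforehand, and some members recur among the pairs. How often pairs of other genes separate in this way was not tested. The exact permutation test gave p = 0.0238 for each pair, the smallest the design allows, and 0.0238 after Benjamini-Hochberg adjustment over the 6 pairs. The pair of CTH and CBS could not be tested because CBS was listed at 0.

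SHMT2 was set against SHMT1, its cytosolic counterpart. The log2 ratio rose from 3.84 ± 0.0686 (SD, n = 3) in the control to 5.22 ± 0.0870 with 10 mM and 5.38 ± 0.0950 with 20 mM, a change of 1.46. SHMT1 itself went from 4.55 to 3.71 and 3.51 FPKM and passed limma's test as lower at 20 mM (log2 fold change −0.30, adjusted p = 0.0289). The mitochondrial transcript was the larger in all 9 libraries.

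MTHFD2 was compared with MTHFD1, the cytosolic enzyme for the same folate steps, and with MTHFD2L, its mitochondrial relative. The log2 ratio to MTHFD1 went from −1.92 ± 0.0826 in the control to −0.76 ± 0.104 and −0.48 ± 0.0365, a change of 1.30, as MTHFD1 fell from 12.5 to 7.66 and 7.07 FPKM. The log2 ratio to MTHFD2L changed least, from 1.22 to 1.54 and 1.59, by 0.35. With a pseudocount of 0.1 this last change was 0.20 (adjusted p = 0.190 by the exact permutation test) and with 0.5 it was 0.31 (adjusted p = 0.0714), so its call depends on the pseudocount.

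PYCR1 was set against PYCR3, the cytosolic enzyme for the same last step of proline synthesis. The log2 ratio went from 1.71 ± 0.0496 in the control to 3.31 ± 0.0466 and 3.37 ± 0.0738, the largest change of the 6 pairs at 1.63. PYCR3 itself fell by 0.43 on the log2 scale at 20 mM (adjusted p = 0.00243 by limma).

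ASNS was compared with GLUL, glutamine synthetase, which makes the amide donor that ASNS uses. The log2 ratio rose from −3.18 ± 0.0855 in the control to −2.63 ± 0.0843 at 10 mM and −2.76 ± 0.150 at 20 mM, a change of 0.48. The size of this change depends on the pseudocount, being 0.76 with 0.5 and 1.26 with 0.1 (adjusted p = 0.0286 by the exact permutation test for each). GLUL was higher at 20 mM by 0.22 on the log2 scale (adjusted p = 0.0217 by limma), less than ASNS.

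**Figure D3:**
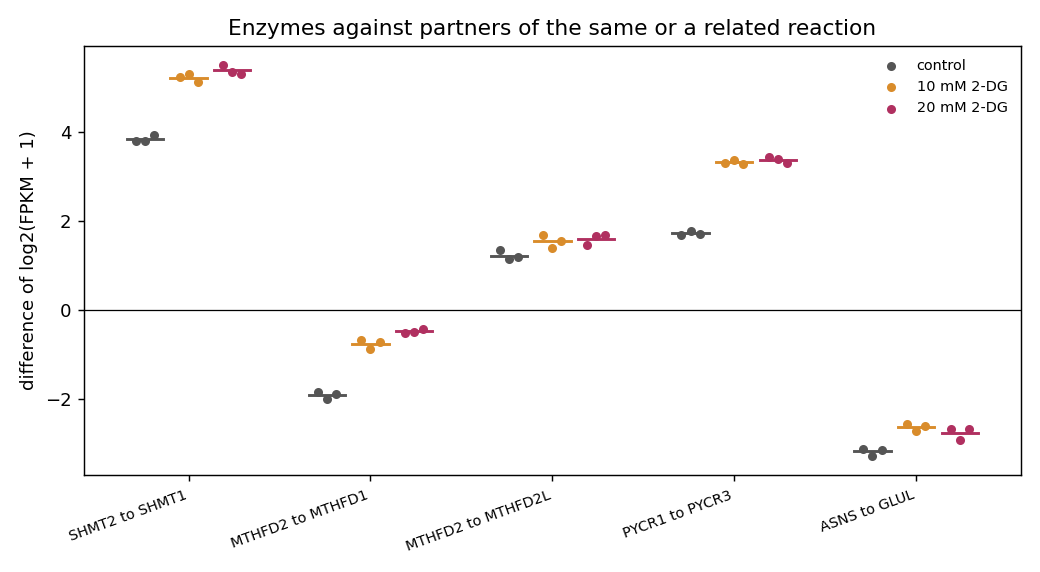
Log2 ratio of a member to its partner enzyme, each as FPKM + 1, in the 3 control, 3 10 mM and 3 20 mM 2-DG libraries for 5 of the 6 pairs. In each pair shown the 6 treated libraries lie above the 3 control libraries, by 1.63 on average for PYCR1 to PYCR3 and by 0.35 for MTHFD2 to MTHFD2L.

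The other enzymes of the same pathways did not rise as a body. Of 44 such genes 35 were tested, of which 7 were higher and 14 lower at 10 mM, and 9 higher and 16 lower at 20 mM, with a median log2 fold change of −0.16 and −0.17. With upper-quartile scaling, the split at 10 mM was 9 higher and 11 lower. Over all genes tested, 12.1% were higher and 17.5% lower at 10 mM, and 15.3% and 21.6% at 20 mM. The shares among the 35 genes were thus above the background in both directions. The same background applies to the counts of the lists that follow. In one-carbon metabolism, 2 of 13 were higher and 7 lower at 20 mM. MTHFD1L, which releases formate in mitochondria, was higher by 0.64 on the log2 scale and MTHFD2L by 0.32. Lower were TYMS, thymidylate synthase (−1.80, from 15.3 to 3.70 FPKM), MTHFD1 (−0.74) and SDSL, a serine dehydratase-like gene (−0.48). TYMS is known to follow DNA synthesis in the cell cycle, and it shares 39.2% of its exonic bases with ENOSF1 on the opposite strand. Of the glycine cleavage genes, GLDC, AMT and GCSH were below the filter on low reads.

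Around aspartate, glutamate and alanine, 5 of 11 genes were higher and 3 lower at 20 mM. GPT2, the mitochondrial alanine aminotransferase, went from 8.02 to 16.5 FPKM (log2 fold change 0.96). PC, pyruvate carboxylase, which makes oxaloacetate, was higher by 0.69, and GPT, listed below 1 FPKM in the mean of each group, by 0.26. The aspartate aminotransferase GOT2 and GLUD1, glutamate dehydrogenase, were lower, by −0.23 and −0.19, as was ASRGL1, an asparaginase (−0.23).

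In proline metabolism, 0 of the 4 other genes tested were higher and 3 were lower at 20 mM. These were OAT, which links ornithine to the proline precursor (−0.60, from 38.1 to 24.7 FPKM), PYCR3 (−0.43) and ALDH4A1, of proline breakdown (−0.42). PRODH, proline dehydrogenase, was listed at 0 in all 9 libraries. As for CBS, whether PRODH is silent cannot be read from this 0. In sulfur metabolism, 2 of 7 were higher and 3 lower. GCLC and GCLM, the subunits of the enzyme that joins cysteine to glutamate for glutathione, were higher by 0.89 and 0.44, and GSS, glutathione synthetase (−0.46), AHCY (−0.46) and MAT2B (−0.26) were lower.

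Genes known to share ATF4 as a regulator were described beside the enzymes. Of 9 amino acid transporters, 8 were higher and 0 lower at each dose, and their log2 fold changes had a median of 1.16 and 1.23. SLC3A2, the heavy chain of several exchangers, went from 107.7 to 451.1 FPKM at 20 mM (2.06), SLC7A11, the cystine carrier, from 4.69 to 16.7 (1.65), SLC1A5, which takes up glutamine, from 80.6 to 205.6 (1.34), and SLC6A9, a glycine carrier, from 7.27 to 19.6 (1.32). Among 20 cytosolic tRNA synthetases, 12 were higher and 2 lower at 10 mM, and 11 and 2 at 20 mM, with medians of 0.33 and 0.31. WARS1 (1.27), SARS1, which charges the serine tRNA (1.13), GARS1, which charges the glycine tRNA (1.08), and CARS1, which charges the cysteine tRNA (0.84), had the largest increases, and FARSB (−0.59) and QARS1 (−0.19) were lower.

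Of 11 ATF4-linked regulators, ATF4 included, 8 were higher and 1 lower at 10 mM, and 9 and 1 at 20 mM. ATF4 mRNA itself went from 145.0 to 227.1 and 227.6 FPKM (log2 fold change 0.65 at 20 mM, adjusted p = 0.000135 by limma). DDIT3, the ATF4-induced factor CHOP, went from 27.2 to 64.1 and 77.1 FPKM (1.47 at 20 mM), with 27.2% of its exonic bases shared with MARS1 on the opposite strand. TRIB3 (1.92), CHAC1 (1.47) and SESN2 (1.28) were also higher, and EIF2AK4, the kinase GCN2 that senses uncharged tRNA, was lower (−0.43). ATF4 protein was not measured.

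**Figure D4:**
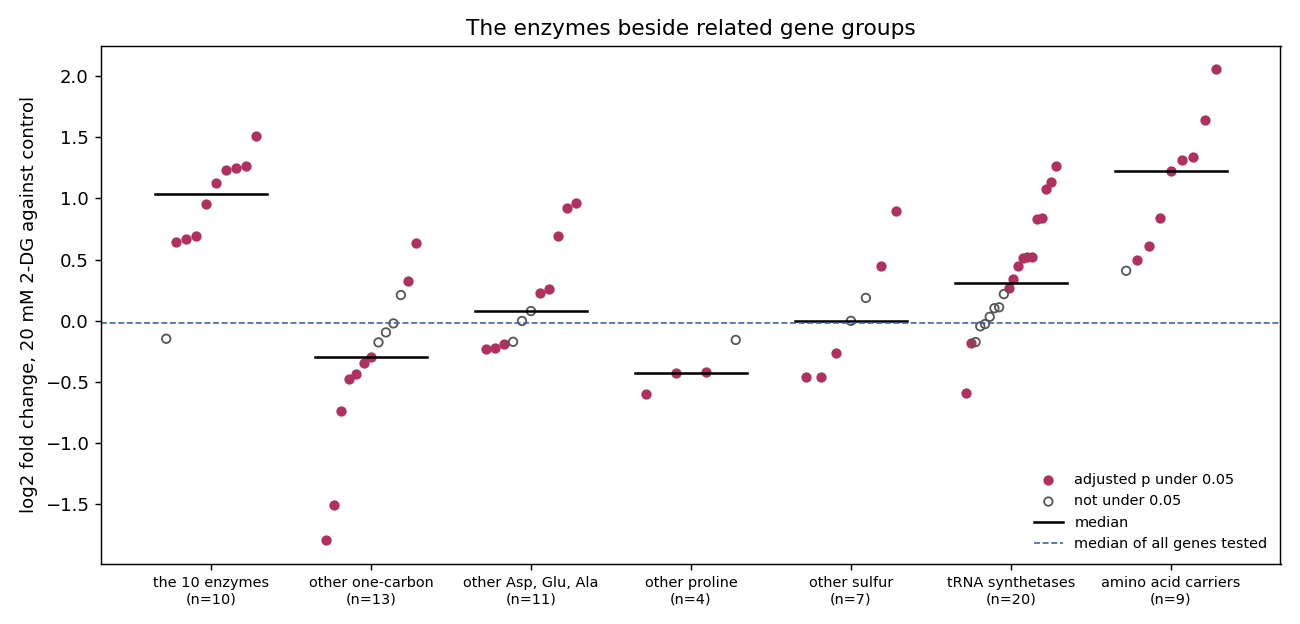
Log2 fold change at 20 mM 2-DG against the control, on the log2(FPKM + 1) scale, for each gene tested in the 10 enzymes and in the related gene groups, with filled points for an adjusted p under 0.05, a bar at each group's median and a dashed line at the median of all genes tested. The median was 1.04 for the 10 enzymes, 1.23 for the amino acid transporters, −0.30 for the other one-carbon genes and −0.43 for the other proline genes.

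The members' shared profile, the mean of their standardised log2(FPKM + 1) values, was compared with that of every other protein-coding gene tested. The 8 genes most like it had a Pearson r between 0.994 and 0.996 over the 9 libraries. They included WARS1, TACC2, RNF19B, PDIA4, CCND2, PDIA6 and SLC3A2. WARS1 and SLC3A2 stand in the lists above, and PDIA4 and PDIA6 are protein-folding enzymes of the endoplasmic reticulum. The 9 libraries form 3 groups and share the step between control and 2-DG, and 962 of 13055 candidates exceeded 0.9. Of the members themselves, SHMT2 followed the shared profile most closely (r = 0.995) and ASNS least among the 9 that rose (0.934). For ALDH18A1 r was negative (−0.71), though its change was not called at either dose. Each member is part of the profile, so these r values are partly set beforehand.

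Exons of other genes overlap 27.2% of the exonic bases of MTHFD2 (SLC4A5), 15.6% and 14.1% of those of PYCR1 (AC145207.4 and MYADML2) and 8.83% of those of SHMT2 (AC137834.2). These 4 overlapping genes were listed at 0.276 FPKM or less in every library. Whether the counting used strand is not given in the sources used here.

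The libraries held between 30974968 and 40843638 reads counted on genes, so 1 read on a gene of 1 kb was worth 0.0245 to 0.0323 FPKM. Mitochondrially encoded genes took 25.7% to 31.8% of all FPKM, the most in library 3 at 10 mM. The cell line's markers VIM, CD44, EGFR, CAV1 and AXL summed to 574.8 to 600.9 FPKM in the control, 525.6 to 577.5 at 10 mM and 506.5 to 528.4 at 20 mM, while ESR1, PGR, GATA3, CDH1 and EPCAM, low in triple-negative mesenchymal lines, summed to 5.34 to 7.27, 4.31 to 5.65 and 3.98 to 4.62. Markers of other cell types (PTPRC, PECAM1, CD14, CD3E, COL1A1 and ALB) summed to 5.55 to 6.66, 3.75 to 5.23 and 2.99 to 3.92 FPKM. Of these 6 genes 3 passed the filter, with 0 higher and 2 lower at 20 mM, and their part in the results was not tested. PTPRC, the common leukocyte antigen, reached at most 0.0297 FPKM in the mean of a group.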

How the data were processed

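RNA from MDA-MB-231 cells (0, 10 or 20 mM 2-DG for 24 h, 3 libraries each) was extracted with a Qiagen kit and made into mRNA libraries. The authors deposited FPKM values per gene, 1 table per library, and their processing notes name GRCh38 and hg38; the aligner, the counting tool, the annotation release and the use of strand are not given in the sources used here. The study's own calls came from a count model, which FPKM cannot enter. Tests were therefore made on log2(FPKM + 1) by limma 3.58.1 (R 4.3.3), fitted to all 9 libraries together with a variance trend and without a block. Benjamini-Hochberg adjustment covered 16571 genes. A fold change on this scale understates that of low genes.

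A gene's FPKM moves in steps of what 1 read is worth, so library totals and reads per gene were recovered with GENCODE 29 exonic lengths as a start. Totals came within 0.000359 of a whole number, all 32806 genes above 0 gave whole reads within 0.001, and these made up 99.8% to 99.9% of each total. The length found equalled the GENCODE length, or divided it without remainder, for 43.8% of them. The smallest length that gave whole reads was taken, so the reads of a gene can be too low. These reads are not the authors' counts. They served the filter (10 or more reads, scaled to the median depth, in 3 or more libraries, and 15 or more in total) and limma-voom as an alternative. The fits were tested on simulated data with the same spread in every group. In these libraries the spread differed between groups, so that test does not show how the fits behave here. Read numbers set counting error only.

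The members and gene lists were chosen with earlier results of these data known, so no list was tested as a set. All 10 members and their partner enzymes were named, with up to 4 called genes per direction in each other list (ranked by size of change at 20 mM), ATF4, DDIT3 and the 8 protein-coding genes most like the members' profile. Of the tRNA synthetases, 18 were matched through their older GENCODE symbol. Sequences are RefSeq's. Some genes that these rules name are not reported here. Pearson r between libraries of a group was 0.989 to 0.996, and none were taken for the same library. Same-numbered libraries did not deviate together (r from −0.41 to 0.29). Between differently numbered libraries of different groups r ran from −0.23 to 0.52. It was highest for control library 1 with 10 mM library 2, and 0.49 for control library 2 with 10 mM library 1. What these libraries shared is not known and was not modelled. Pseudocounts of 0.1 and 0.5, the filter, the scaling, the fit, the fold threshold and each library were varied.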

Additional observations from a re-analysis of the deposited data

How the results depend on the processing

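Of the 10 enzymes, 9 were called higher and 0 lower at each dose under all 19 alternatives run on these calls, and no member's call against the control was lost under any of them. By the stricter rule, 8 members passed at 10 mM and 9 at 20 mM with a 1.5-fold threshold in place of a log2 fold change over 1 (5 and 5), because that threshold is lower; leaving out 1 library at a time gave 4 to 5 at 10 mM and 5 at 20 mM. At the threshold of 1, a pseudocount of 0.1 and limma-voom each gave 6 at 10 mM and 7 at 20 mM, and both scalings gave 6 at 20 mM. The enzyme pairs called fell from 6 to 0 without any 1 control library, where the exact permutation test cannot go below 0.0714, and the range over left-out libraries was 0 to 6. The log2 fold change of ASNS ranged from 0.62 to 1.75 at 10 mM and from 0.57 to 1.62 at 20 mM, the highest by limma-voom on the recovered reads. By limma-voom ASNS, not PSAT1 (1.52 and 1.54), had the largest change at both doses, and with a pseudocount of 0.1 at 10 mM (1.524 against 1.518). Scaling moved the median of all genes by at most 0.10 (log2).

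The difference between 20 mM and 10 mM, not called for any member, changed sign for 5 genes, all close to 0. With median-ratio scaling PHGDH became 0.00243 and PSPH 0.00892, and with upper-quartile scaling PHGDH became 0.0134, PSPH 0.021 and ALDH18A1 0.00859. Leaving out 1 library at a time, from either dose, it ranged from −0.14 to 0.0315 for ASNS, from −0.0729 to 0.0709 for PHGDH, from −0.00578 to 0.0514 for PSAT1 and from −0.0562 to 0.0411 for PSPH.

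With the replicate block, 9 members were again higher at each dose and 0 between the doses; the other pathway genes numbered 6 higher and 12 lower at 10 mM and 9 and 13 at 20 mM. The numbers were not found to pair the libraries. Depth limits ASNS most, with 56 to 257 reads per library.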
